A study of Homo sapiens with 6 samples.

Results

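The genes described here were the cadherins and catenins of 143B cells, a human osteosarcoma line. The members were chosen by symbol. They were the genes named CDH with a number, CDHR1, CDHR2, CDHR3 and CDHR5, and the catenin genes CTNNA1, CTNNA2, CTNNA3, CTNNAL1, CTNND1, CTNND2 and JUP, which made 34 members of the 54308 genes listed. They comprised 5 type I cadherins, 13 type II cadherins, 5 atypical cadherins, 4 cadherin-related genes and 7 catenins, so the set reached beyond the classical cadherins, and CTNNB1 (β-catenin) was not in it. The study asked how the transcriptome of 143B cells differed once CNTNAP4 had been deleted, and bulk RNA-seq was performed on 3 vector control (VC) and 3 CNTNAP4 knockout (KO) RNA samples. Per the labels, VC cells received the vector plasmid and KO cells a guide RNA and Cas9 plasmid, both by transient transfection for 48 h. The paper lists a guide sequence for its negative control plasmid too, and its methods give a longer incubation before single cells were sorted. Clonal cells were used. Which clone each library came from was not given in the sources used here, so CNTNAP4 deletion and differences between clones cannot be told apart, and the p-values measure the spread between these RNA samples.

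Classical cadherins are transmembrane adhesion receptors whose extracellular repeats bind calcium and engage cadherins on the neighbouring cell. Their cytoplasmic tails hold p120-catenin (CTNND1) near the membrane and β-catenin or plakoglobin (JUP) further along, and α-catenin (CTNNA1) links this complex to actin filaments. Cells of mesenchymal origin, bone-forming cells among them, are known for N-cadherin (CDH2) and cadherin-11 (CDH11), whereas epithelia are known for E-cadherin (CDH1) and P-cadherin (CDH3). The atypical cadherins differ from these in domain layout or membrane anchor.

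CNTNAP4 itself had a value only in VC replicate 3, a log2 signal of -7.18, equal to about 2.03 reads, so its transcript was at the limit of detection in both groups and its level could not check the labels. Pearson's r across genes was 0.985 or more within a group and 0.981 or less between the groups. Among 10 markers of the osteosarcoma line, all had values. NT5E (log2 fold change -0.66) and COL1A2 (-0.81) fell, ALPL (0.58) and SPARC (0.37) rose, and COL1A1 also rose. The other 5 were not called. COL1A2 had only about 5.90 to 12.9 reads a library, and its call was lost with 1 added to each linear signal. The 8 endothelial markers summed to a linear signal of 19.9 to 22.6 in VC and 39.3 to 43.9 in KO. Most of this sum came from TIE1, an endothelial receptor kinase that rose by 0.99 on the log2 scale. Of the 7 tested, TIE1 alone was called, and 5 had a positive and 2 a negative log2 fold change, so the sum does not show a rise of the list. CLDN5 was listed only in KO replicate 3. Of 6 leukocyte markers, summed at 0.413 to 0.504 in VC and 0.296 to 0.418 in KO, 5 had a value and 3 were tested. CSF1R rose (2.16), PTPRC (-1.18) and SPI1 (-0.66) were not called, and the other 2 had values in all VC libraries and in 1 KO library each. The 10 epithelial markers summed to 580.3 to 643.6 in VC and 557.0 to 611.7 in KO, mostly keratins. Of the 10, 8 were tested, 4 with a positive and 4 with a negative log2 fold change. CLDN4 (-1.89) and EPCAM (-0.67) were called lower and KRT8 (0.59) higher. ESRP1 had the largest change of the list (3.23, adjusted p = 0.0854) but was not called, with no value in VC replicate 3. KRT5 had values in all VC libraries and in no KO library. Over all genes tested 32.9% were called, and nothing is read from the counts of called markers in these lists. The part of these markers in the results on cadherins was not tested.

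Every value is a log2 signal as deposited, quantile-normalized between the 6 libraries. When each signal was multiplied by the gene's exon length, the low values of every library fell on steps. In KO replicate 1, for example, 443 genes lay at the lowest step, 270 at the step of 2 reads and 227 at that of 3 reads, against 61 and 54 genes in windows of the same width below and above the lowest step. The signal was therefore taken as proportional to reads per exon length, which lets levels be compared between genes and lets low values be read as about 1, 2 or 3 reads. At an exon length of 1 kb, 1 read was worth a log2 signal between -5.86 and -5.71 across the libraries. The step is approximate, since quantile normalization came after counting and the exon lengths are from GENCODE release 29.

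Of the 34 members, 32 had a value in at least 1 library and 21 in all 6. The test, limma on the whole table, took genes with 2 or more values per group, which 25 members had. CDH2 and CDH15 rose in KO, and CDH3, CDH4, CDH13, CDH23, CDH26, CDHR3 and CTNNA2 fell, each at an adjusted p under 0.05. These 9 called members are 36.0% of the 25, where 32.9% of all 19306 genes tested were called (13.1% higher and 19.8% lower), and nothing is read from the gap between these shares. The choice of this family was made with results of this comparison in view, so the counts describe the members only. Without VC replicate 1 the counts were 0 higher and 4 lower, without VC replicate 2 1 and 4, and without VC replicate 3 or KO replicate 3 0 and 3. The calls over all genes also fell in these fits, from 2526 higher and 3828 lower to 757 and 646 without VC replicate 1, 1054 and 1396 without VC replicate 2, 654 and 569 without VC replicate 3 and 988 and 1030 without KO replicate 3. Without KO replicate 1 the calls over all genes rose instead, to 2940 higher and 5729 lower of 18458 tested. The members called in that fit numbered 2 higher and 8 lower. The median log2 fold change of the 25 was -0.29, beside -0.13 for all genes. In 12 of the 21 members with 6 values the KO and VC libraries did not overlap, and 59.3% of all such genes had no overlap.

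**Figure D1:**
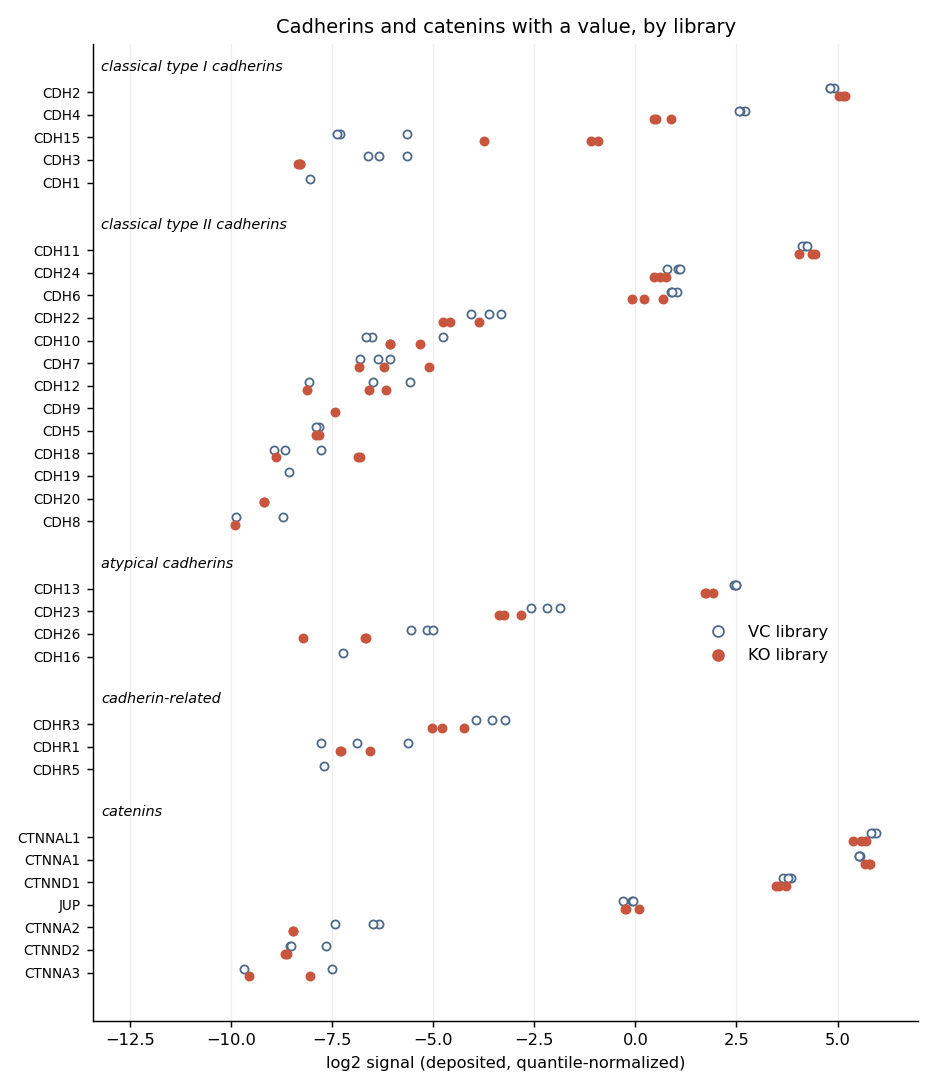
Log2 signals (x axis, deposited quantile-normalized values) of the 32 cadherins and catenins with a value, by class, with open circles for VC libraries and filled circles for KO libraries. CDH2, CDH11, CTNNA1, CTNNAL1 and CTNND1 lie at the top of the range in all 6 libraries, and most type II cadherins lie below -5.

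The cadherin levels were headed by the mesenchymal pair. CDH2 and CDH11 held the largest shares of the summed linear signal of the 18 type I and type II cadherins in every library. The summed signal was 57.3 ± 0.0694 for VC and 59.0 ± 4.68 for KO (SD, n = 3 each), so the total differed by less than the spread of the KO libraries. The make-up differed. The share of CDH2 was 50.4% ± 1.87 in VC and 58.8% ± 2.14 in KO, and that of CDH4 10.8% ± 0.623 and 2.63% ± 0.361 (SD, n = 3 each). CDH11 held 31.7% ± 1.46 and 33.1% ± 2.23, with overlapping libraries. CDH15 went from 0.0188% ± 0.0139 to 0.619% ± 0.432. These shares are descriptions with no test.

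**Figure D2:**
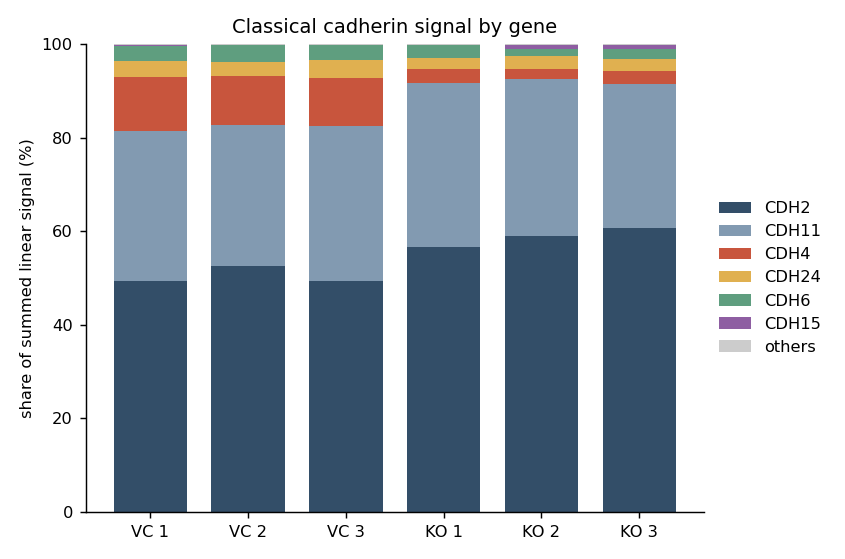
Share of the summed linear signal of the type I and type II cadherins (y axis, percent) in each of the 6 libraries, by gene. The CDH4 band is 10.3% to 11.5% high in the VC libraries and 2.25% to 2.96% in the KO libraries.

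Promoter windows are shown for CDH2 and CDH4, the called type I cadherins with the most reads, and for CDH26, the neighbour of CDH4 on chromosome 20. They are the 250 bases before annotated transcript starts in RefSeq on GRCh38.p14, with any match to the E-box letters CACCTG or CAGGTG, the element read by SNAI and ZEB factors on cadherin genes, in capitals. Both spellings are the same site on opposite strands. Windows were found for 21 of the 34 members and not for CDH15, CDH3 or CDH13. CDH2, CDH4 and CDH26 had 2 windows each, of which the one furthest upstream is printed.
CDH2 (chr18:28177131-28177380, minus strand): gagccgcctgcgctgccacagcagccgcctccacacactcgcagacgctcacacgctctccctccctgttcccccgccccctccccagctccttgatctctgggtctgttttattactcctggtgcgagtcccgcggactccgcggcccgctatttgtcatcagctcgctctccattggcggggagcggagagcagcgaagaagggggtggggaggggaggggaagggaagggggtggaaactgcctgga
CDH4 (chr20:61499171-61499420, plus strand, before a start inside the gene): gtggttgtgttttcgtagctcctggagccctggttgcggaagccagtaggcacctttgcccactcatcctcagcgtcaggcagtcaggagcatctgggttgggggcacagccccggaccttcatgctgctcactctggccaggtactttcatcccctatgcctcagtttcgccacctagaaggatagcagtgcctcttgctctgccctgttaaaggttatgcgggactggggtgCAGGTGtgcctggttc
CDH26 (chr20:59958173-59958422, plus strand): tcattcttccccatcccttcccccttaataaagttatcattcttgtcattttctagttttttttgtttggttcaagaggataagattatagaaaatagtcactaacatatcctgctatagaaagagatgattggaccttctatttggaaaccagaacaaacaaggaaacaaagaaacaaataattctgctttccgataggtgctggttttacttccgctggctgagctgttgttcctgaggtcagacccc
The printed CDH4 window held 1 match, and the other CDH4 window and both windows of CDH2 and of CDH26 held none. Among the other called members with a window, 1 of the 3 windows of CDH23 held a match, and those of CDHR3 and CTNNA2 held none. Matches were present in 4 of the 42 windows of members and in 17.5% of all 35116 windows in the table. The G and C content of the printed windows was 66.0% for CDH2, 58.4% for CDH4 and 38.0% for CDH26, beside a median of 58.0% over all windows. A match is a match of letters and says nothing of binding.

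Among the type I cadherins all 4 tested members were called, 2 higher and 2 lower, where 32.9% of all genes were called, and nothing is read from this about the class. CDH4 (R-cadherin, known from retina, brain and muscle development) showed the largest fall among the 15 tested members with a mean of at least 10 reads. Its log2 signals, here and below in the order of replicates 1 to 3, were 2.72, 2.58 and 2.57 for VC and 0.88, 0.46 and 0.52 for KO. The KO libraries were all far below the VC libraries, by 4.01-fold on average (log2 fold change -2.00, SE 0.13, adjusted p = 0.00571). The ratio of CDH2 to CDH4 linear signal was 4.70 ± 0.367 in VC and 22.7 ± 3.61 in KO (SD, n = 3 each). CDH4 (chr20:61252426-61940617) was called without each of the 6 libraries in turn, with adjusted p up to 0.0331. The gene has annotated antisense RNAs within it, and whether reads were counted by strand is not given in the sources used here.

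CDH2 (N-cadherin) rose slightly. VC replicates gave 4.82, 4.91 and 4.82 and KO replicates 5.13, 5.18 and 5.03, and the groups did not overlap. The rise was 1.20-fold (log2 fold change 0.26, SE 0.076, adjusted p = 0.0497), just inside the threshold. The call was lost without any of the 6 libraries, where the adjusted p reached 0.148, 0.0834 and 0.150 as VC replicates 1, 2 and 3 were dropped. Dropping KO replicates 1, 2 and 3 gave 0.0623, 0.0974 and 0.0794. The gene lies at chr18:27950966-28177446.

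CDH15 (M-cadherin, known from muscle precursor cells) rose from near the detection limit. In VC replicates its log2 signal was -7.30, -5.65 and -7.38, about 1, 3.03 and 1 reads. In KO replicates it was -3.75, -0.93 and -1.09, about 12.5, 87.4 and 77.6 reads. All KO libraries were above all VC libraries, and KO replicate 1 stood well below the other KO libraries. The log2 fold change was 4.86 (SE 0.93, adjusted p = 0.0198). Taken as whole reads, 178 in KO against 5 in VC gave a ratio of 35.6 with a 95% interval of 15.0 to 111 (exact Clopper-Pearson). This and the intervals below cover counting error only, take the lowest value as 1 read, and do not correct for depth. The call was lost without VC replicate 1 (adjusted p = 0.0672), VC replicate 3 (0.0682) or KO replicate 3 (0.0635). Adding 1 to each linear signal also ended it (log2 fold change 0.41, adjusted p = 0.0704). Even in KO, CDH15 stayed far below CDH2 on this per-length scale.

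Of 14 skeletal muscle markers, 6 had a value and 5 were tested, of which 2 were called, both lower, where 19.8% of all genes were called lower. PAX7, a muscle stem cell factor, fell (log2 fold change -3.19, no value in KO replicate 1) and MYH3, embryonic myosin, fell (-0.71). PAX7 had about 7.83, 6.79 and 11.9 reads in VC and about 1 read in KO replicates 2 and 3. Its call was lost after adding 1 to each linear signal (-0.032, adjusted p = 0.323). MYOD1, MYOG, MYF5, MYF6, PAX3, CKM, MYMK and MYMX had no value in any library. DES (desmin), not tested, had -7.01 in VC replicate 3 and -7.05, -6.99 and -6.00 in KO. The summed linear signal of these markers was 1.38 to 1.58 in VC and 0.833 to 1.03 in KO.

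CDH3 (P-cadherin) fell within a handful of reads. VC replicates gave -5.65, -6.60 and -6.33, about 6.06, 3.00 and 3.99 reads, and KO replicates -8.34, -8.29 and -8.30, about 1 read each. The groups did not overlap, and the small spread in KO is that of libraries with 1 read each. The log2 fold change was -2.12 (SE 0.25, adjusted p = 0.00963), called without each library in turn. As whole reads, 13 in VC against 3 in KO gave a ratio of 4.33 with a 95% interval of 1.19 to 23.7. With 1 added to the linear signal the call was lost (log2 fold change -0.016, adjusted p = 0.538). CDH1 (E-cadherin), its neighbour on chromosome 16, had a value only in VC replicate 2, -8.04, about 1 read, and was not tested.

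**Figure D3:**
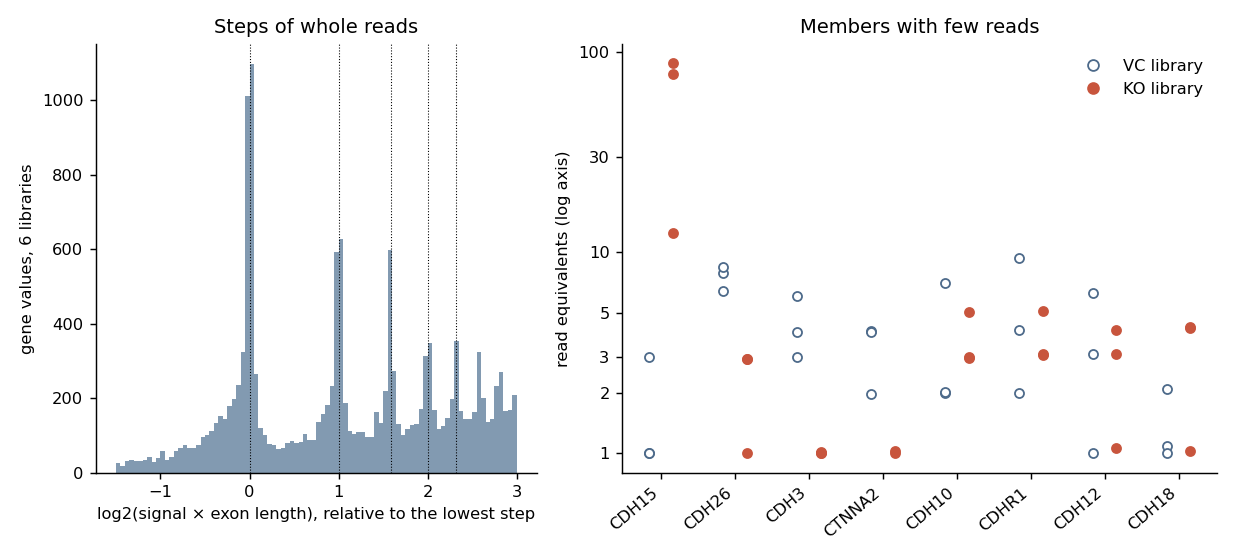
Left, a histogram of low gene values from the 6 libraries on log2 of signal times exon length (x axis), set to 0 at the lowest step, with dotted lines at 1 to 5 reads. Right, read equivalents (y axis, log scale) of 8 members with few reads, with open circles for VC and filled circles for KO libraries, where CDH15 reaches 87.4 in KO and CDH3 lies at about 1 read in all KO libraries.

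None of the 9 tested type II cadherins was called at an adjusted p under 0.05, where 32.9% of all genes were called. Among the 9, 2 had an unadjusted p under 0.05, as did 9241 of all 19306 genes tested. Nothing is read from this about the class. CDH11 (cadherin-11 or OB-cadherin), named for osteoblasts, gave 4.20, 4.11 and 4.24 in VC and 4.45, 4.36 and 4.04 in KO. The groups overlapped (log2 fold change 0.10, SE 0.13, adjusted p = 0.565).

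CDH6 (K-cadherin, known from kidney) gave 0.88, 1.02 and 0.91 in VC and 0.69, -0.086 and 0.22 in KO. Every KO library was below every VC library, with a log2 fold change of -0.66 (SE 0.21, adjusted p = 0.0610). Of the fits that left out a library, CDH6 was called only in that without KO replicate 1 (log2 fold change -0.87, adjusted p = 0.00956). Calls over all genes rose in that fit too. In the other fits of this kind the adjusted p of CDH6 was 0.103 to 0.145. CDH24, whose product binds catenins, gave 1.05, 0.78 and 1.09 in VC and 0.60, 0.77 and 0.45 in KO, again without overlap (log2 fold change -0.37, SE 0.13, adjusted p = 0.0797). CDH24 lies on chromosome 14, where the median over 561 tested genes was -0.39. CDH22, known from brain, gave -3.33, -4.07 and -3.62 in VC and -4.75, -4.59 and -3.87 in KO, with overlap (log2 fold change -0.73, SE 0.30, adjusted p = 0.117).

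The other type II cadherins, most of them known from the nervous system, were at low levels. CDH7 gave -6.80, -6.07 and -6.37 in VC and -5.11, -6.22 and -6.84 in KO, at 6.77 to 23.2 read equivalents a library. CDH10 and CDH12 were at a few reads. CDH10 gave -4.77, -6.52 and -6.65 in VC and -5.33, -6.06 and -6.06 in KO, which correspond to 11 reads in each group. CDH12 gave -6.50, -8.08 and -5.57 in VC and -6.59, -8.12 and -6.17 in KO. In all of these the groups overlapped. CDH18 gave -7.78, -8.67 and -8.92 in VC and -6.86, -8.88 and -6.81 in KO, 4 reads against 9, a KO to VC ratio of 2.25 with a 95% interval of 0.628 to 9.999. It was called only without KO replicate 2 (log2 fold change 1.62, adjusted p = 0.0478). CDH5 (VE-cadherin), the endothelial cadherin, had values in VC replicates 1 and 3 (-7.83 and -7.89) and KO replicates 1 and 2 (-7.90 and -7.82), each about 1 read, so a change was not detectable at this depth.

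CDH8 had values in VC replicates 1 and 2 (-9.86 and -8.71) and KO replicate 1 (-9.90). CDH20 was seen in KO replicates 2 and 3 (-9.18 and -9.19), CDH9 in KO replicate 3 (-7.42) and CDH19 in VC replicate 1 (-8.57). None of these 4 was tested, and each value was about 1 or 2 reads.

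The 3 tested atypical cadherins fell, where 19.8% of all genes were called lower, and nothing is read from this about the class. CDH13 (T-cadherin), anchored to the membrane by a lipid and without a cytoplasmic tail, gave 2.49, 2.45 and 2.48 in VC and 1.93, 1.72 and 1.75 in KO. The KO libraries lay below the VC libraries by far more than the spread within either group, a 1.60-fold fall (log2 fold change -0.68, SE 0.083, adjusted p = 0.00968). It was called without each library in turn, with adjusted p up to 0.0459. CDH13 lies at chr16:82626803-83800640. Over the 6 nearest tested genes the median was 0.061, and none of them was called.

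CDH23, known from the hair cell tip links of the inner ear, gave -1.87, -2.57 and -2.17 in VC and -3.24, -2.83 and -3.36 in KO. The groups did not overlap (log2 fold change -0.93, SE 0.23, adjusted p = 0.0344). The call was lost without VC replicate 1 (adjusted p = 0.0889), VC replicate 3 (0.0969), KO replicate 1 (0.0616) or KO replicate 3 (0.0953). VSIR lies within the span of CDH23 on the opposite strand, and its log2 fold change was -1.04 (adjusted p = 0.0510). The annotated exons of the pair shared 0 bases.

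CDH26, known from epithelium in allergic inflammation, gave -5.16, -5.01 and -5.54 in VC, about 7.94, 8.45 and 6.45 reads, and -6.68, -8.22 and -6.65 in KO, about 2.96, 1 and 2.95 reads. The KO libraries were all lower (log2 fold change -1.95, SE 0.47, adjusted p = 0.0329). As whole reads, 22 against 7 gave a VC to KO ratio of 3.14 with a 95% interval of 1.297 to 8.71. The call was lost without VC replicate 1, 2 or 3 (adjusted p = 0.0922, 0.0907 and 0.0779) or KO replicate 3 (0.0604). It was also lost after adding 1 to each linear signal (-0.027, adjusted p = 0.285). CDH16, the kidney cadherin, had a value only in VC replicate 2 (-7.24), and CDH17, the liver and intestine cadherin, had none.

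Of the cadherin-related genes, CDHR3, the airway receptor of rhinovirus C, fell. It gave -3.55, -3.95 and -3.22 in VC and -4.24, -5.03 and -4.78 in KO, without overlap, at 6.67 to 23.6 read equivalents a library (log2 fold change -1.11, SE 0.28, adjusted p = 0.0353). Of the fits that left out a library, it was called only in that without KO replicate 1 (adjusted p = 0.0169). It was lost without VC replicate 1 (0.0965), VC replicate 2 (0.0530), VC replicate 3 (0.0956), KO replicate 2 (0.0829) or KO replicate 3 (0.0967), and after adding 1 to each linear signal (-0.062, adjusted p = 0.0914). CDHR1, known from photoreceptors, gave -5.61, -7.78 and -6.88 in VC and -7.31, -6.56 and -7.27 in KO, with overlap (log2 fold change -0.29). Of the intestinal brush border pair, CDHR5 had a value only in VC replicate 3 (-7.69) and CDHR2 had none.

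Of the 7 catenins only CTNNA2 was called, where 32.9% of all genes were called, and nothing is read from this about the class. CTNNA1, CTNNAL1 and CTNND1 had the highest levels of the 7 in both groups. CTNNA1 (αE-catenin) gave 5.53, 5.56 and 5.53 in VC and 5.68, 5.80 and 5.77 in KO. The KO libraries were all above the VC libraries, by 0.21 on the log2 scale (SE 0.067, adjusted p = 0.0628). CTNNAL1 (α-catulin), an α-catenin-like protein, gave 5.88, 5.95 and 5.83 in VC and 5.70, 5.37 and 5.58 in KO. Here the KO libraries were all below (log2 fold change -0.34, SE 0.10, adjusted p = 0.0582). Both genes were called when the test was limited to the 50% of genes with the highest mean. The adjusted p there was 0.0217 for CTNNA1 and 0.0175 for CTNNAL1. Of the fits that left out a library, each was called only in that without KO replicate 1 (adjusted p = 0.0298 and 0.0257). Calls over all genes rose in that fit too. In the other fits of this kind the adjusted p reached 0.174 for CTNNA1 and 0.139 for CTNNAL1. The ratio of CTNNA1 to CTNNAL1 linear signal was 0.787 ± 0.0242 in VC and 1.16 ± 0.174 in KO (SD, n = 3 each).

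CTNND1 (p120-catenin, which holds cadherins at the membrane) gave 3.65, 3.85 and 3.77 in VC and 3.73, 3.54 and 3.49 in KO. JUP (plakoglobin, shared with desmosomes) gave -0.085, -0.31 and -0.060 in VC and -0.23, 0.092 and -0.25 in KO. The groups overlapped for both genes, with log2 fold changes of -0.17 (SE 0.0996, adjusted p = 0.230) and 0.020 (SE 0.13, adjusted p = 0.917). CTNNB1 (β-catenin), the partner of CTNNA1 and no member, gave 6.55, 6.56 and 6.53 in VC and 6.48, 6.31 and 6.40 in KO (log2 fold change -0.15, SE 0.073, adjusted p = 0.167). JUP lay far below CTNNB1 in every library. The CTNNA1 to CTNNB1 ratio of linear signals was 0.498 ± 0.00449 in VC and 0.640 ± 0.0620 in KO (SD, n = 3 each), and the libraries of the groups did not overlap.

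The neural catenins were at a few reads. CTNNA2 (αN-catenin) gave -7.43, -6.33 and -6.50 in VC, about 1.98, 4.06 and 3.99 reads. KO replicate 1 had no value, and the other KO libraries gave -8.45 and -8.48, about 1 read each. It fell (log2 fold change -1.71, SE 0.37, adjusted p = 0.0335). With the empty cell counted as 0, 10 reads against 2 gave a VC to KO ratio of 5.00 with a 95% interval of 1.07 to 46.9. The call was lost without VC replicate 2 (adjusted p = 0.0800) or VC replicate 3 (0.0950), and after adding 1 to each linear signal (-0.0099, adjusted p = 0.780). It was also lost with a trend term and robust estimation in limma (adjusted p = 0.0681). Without KO replicate 2 or KO replicate 3 the gene could not be tested, as 1 KO value was left. CTNND2 (δ-catenin) gave -8.54, -8.51 and -7.65 in VC, no value in KO replicate 1, and -8.66 and -8.62 in the other KO libraries (log2 fold change -0.41, adjusted p = 0.374). CTNNA3 (αT-catenin) had values in VC replicates 2 and 3 (-7.51 and -9.67) and KO replicates 1 and 2 (-8.04 and -9.56), with overlap.

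**Figure D4:**
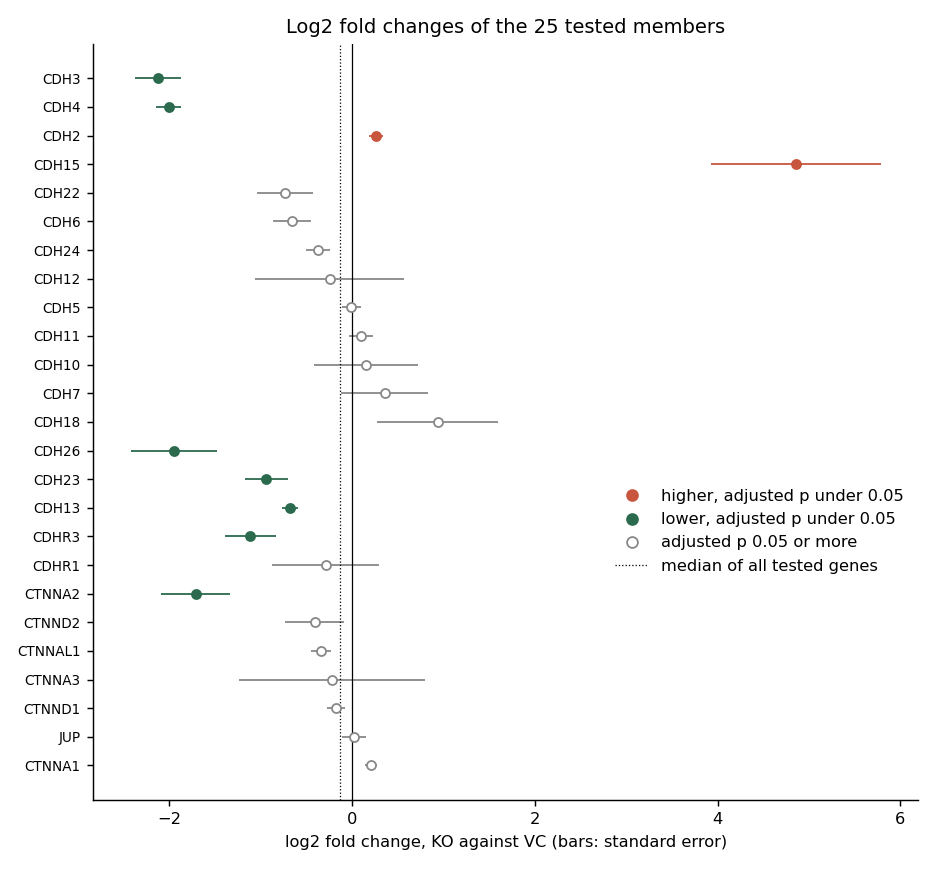
Log2 fold change of KO against VC (x axis, points with bars of 1 standard error) for the 25 tested members by class, filled where the adjusted p was under 0.05, with a dotted line at the median of all tested genes, -0.13. The 2 members that rose are type I cadherins, CDH2 at 0.26 and CDH15 at 4.86, and all 3 tested atypical cadherins lie below 0.

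The members with few reads were set apart. Of the 25 tested members, 15 had a mean of at least 10 reads, and 6 of these were called, 2 higher and 4 lower. The other 10 tested members had a mean under 10 reads, and 3 of these were called, all lower (CDH3, CDH26 and CTNNA2). These are 40% and 30%, where 32.9% of all genes tested were called (13.1% higher and 19.8% lower). Nothing is read from these counts about the members. Among the 18 members whose lowest value was under 3 reads, 46 of 51 read equivalents above 1 and under 10 lay within 0.2 of a whole number.

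The partners of the cadherin complex were described from a list of 35 genes, of which 34 were tested, and 3 rose and 15 fell, with a median log2 fold change of -0.32. Over all genes 13.1% were called higher and 19.8% lower, with a median of -0.13, and nothing particular to the partners is read from this. FYN, a Src family kinase that acts on junction proteins, rose by 0.92 (SE 0.12, adjusted p = 0.0102). PTPRM, a receptor phosphatase found with cadherins, fell by 0.79 (SE 0.072, adjusted p = 0.00766). PLEKHA7, which binds p120-catenin, fell by 0.95 (SE 0.16, adjusted p = 0.0152), and PKP4, a p120-related protein, fell by 0.79 (SE 0.16, adjusted p = 0.0230). FYN and PTPRM were called under every alternative run but the 2-fold threshold, which no partner passed. The PLEKHA7 call was lost without VC replicate 1 or 3. The partner counts were 1 higher and 1 lower without VC replicate 1 or VC replicate 3, 1 and 6 without VC replicate 2, 2 and 8 without KO replicate 2 and 1 and 3 without KO replicate 3. The counts over all genes fell in the same fits, to 1734 higher and 2659 lower without KO replicate 2 and to the numbers given above without the others.

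Of the 12 desmosome genes 7 were tested, and DSP (desmoplakin) alone was called, where 32.9% of all genes were called. Its log2 fold change was -0.66 (SE 0.065, adjusted p = 0.00790). Of 13 large cadherins and other superfamily genes 12 were tested, and 5 fell, where 19.8% of all genes were called lower. Nothing is read from this about the list. FAT3 had the largest fall (-2.00, adjusted p = 0.0292), followed by CELSR2 (-1.52, adjusted p = 0.0189), CLSTN2 (-1.23, adjusted p = 0.00583) and DCHS1 (-0.54, adjusted p = 0.0276). The median of this list was -0.50. Of 10 factors known to repress cadherin genes 9 were tested and 3 called, where 32.9% of all genes were called. TCF4 rose (0.63, adjusted p = 0.00963), ZEB1 rose (0.54, adjusted p = 0.0173) and TWIST1 fell (-0.68, adjusted p = 0.0156). SNAI1 (0.35, adjusted p = 0.0574) and SNAI2 (-0.26, adjusted p = 0.05003) lay just outside the threshold in opposite directions.

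CDH4 and CDH26 were adjacent among the tested genes of chromosome 20, and the genes around them were lower too. Over the 6 tested genes nearest to CDH4, CDH26 among them, the median was -1.09 on the log2 scale (range -2.33 to -0.92), and 5 of them were called lower. PPP1R3D had -0.92 (adjusted p = 0.00815), FAM217B -0.98 (adjusted p = 0.0123) and TAF4 -1.05 (adjusted p = 0.0105), and SYCP2, next to these, -1.11 (adjusted p = 0.0198). Over 30 tested genes, 15 on each side, 28 had a negative log2 fold change and 20 were called lower, with a median of -0.76. The chromosome as a whole had a median of -0.25 over 491 genes, of which 177 were called lower. The log2 fold change of CDH4, -2.00, thus stood beside values of -1.05 to -0.92 for TAF4, FAM217B and PPP1R3D. It also stood beside -1.95 for CDH26, -2.33 for LOC105372704 (adjusted p = 0.0284) and -1.14 for LOC105372703, which was not called. The differences between these genes were not tested. The part of this stretch in the fall of CDH4 and CDH26 was not tested. The window of 30 genes was chosen after the nearest genes had been seen.

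Around CDH15 there was no such run of lower genes. None of its 6 neighbours was called, with log2 fold changes from -1.49 to 0.46 and a median of -0.15, and over 30 genes 3 were called higher and 3 lower, with a median of -0.073. CDH3 had ZFP90 (-0.47), TANGO6 (-0.44) and HAS3 (-1.23) called lower among its 6 neighbours. CDH2 had KCTD1 called lower (-0.61), while the desmosomal cadherins beside it, DSC2 (0.031), DSC3 (-1.09) and DSG2 (0.23), were not called. Of the 6 neighbours each of CTNNA2, CDHR3 and CDH23, 2, 2 and 3 were called higher and none lower. Over all genes 13.1% were called higher and 19.8% lower, and nothing is read from these counts of neighbours.

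**Figure D5:**
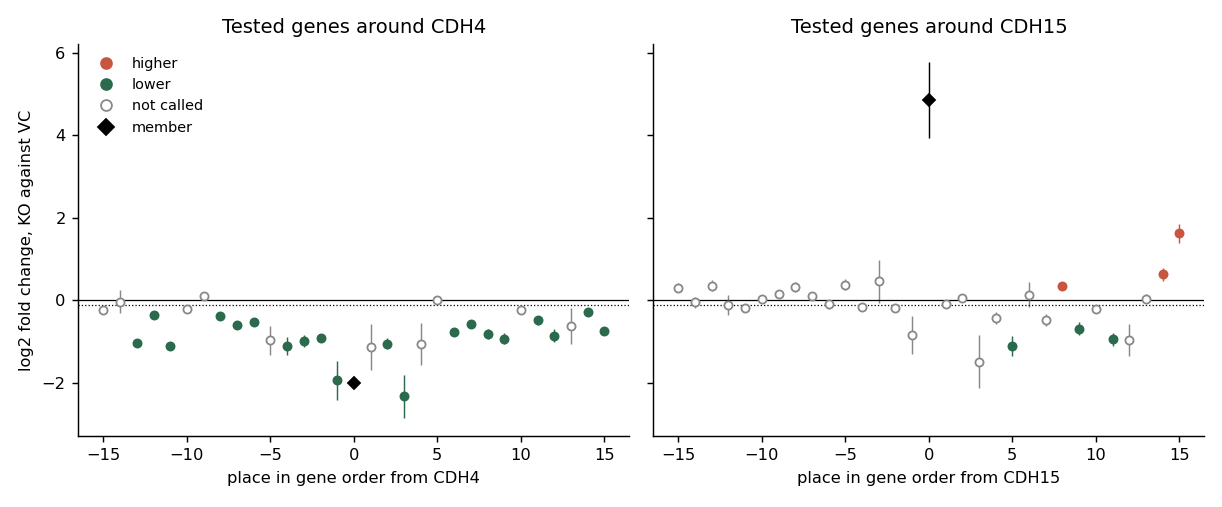
Log2 fold change of KO against VC (y axis, bars of 1 standard error) for the 15 tested genes on each side of CDH4 and of CDH15 (x axis, place in gene order), with filled circles for called genes, a diamond for the member and a dotted line at the median of all genes. Around CDH4, 28 of 30 genes lie below 0, whereas CDH15 at 4.86 stands apart from its neighbours.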

How the data were processed

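RNA-seq was performed by the authors on 3 VC and 3 KO samples, grouped here by their labels. The submitters' processing notes name CASAVA, STAR, Partek and GRCh38.p13, and the methods name CLC Genomics tools along with Partek Genomics Suite. Versions and the setting for strand are not given in the sources used here. The deposited values are log2 signals that the authors had quantile-normalized between libraries, and empty cells mark genes without a value. The labels name a stranded mRNA kit and the methods total RNA sequencing. No further normalization was applied.

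Genes with at least 2 values per group (19306) were compared with limma 3.58.1 in R 4.3.3, with no trend term. Its two-sided p-values had the Benjamini-Hochberg adjustment over all of them. A call is an adjusted p under 0.05. The script was tested on simulated data. Members and gene lists were chosen with earlier results of these data known. All members were named, and of other genes CNTNAP4, CTNNB1, up to 4 called genes per list with the largest change, and neighbours of called members. SNAI1, SNAI2, COL1A1, DES, PTPRC, SPI1, ESRP1 and KRT5 were named after their values had been seen. Positions and exon lengths are from GENCODE release 29 (GRCh38), gene order and promoters from RefSeq (GRCh38.p14). Read equivalents were computed after the data had been seen, from exon lengths of transcripts paired with RefSeq. Depth beyond the read steps is not given in the sources used here. Protein sequences were not analysed here. Shares, sequences and figures were made with Python 3.11.15, pandas 2.3.3, scipy 1.17.1 and matplotlib 3.10.9.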

Additional observations from a re-analysis of the deposited data

How the results depend on the processing

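Of the 9 called members, CDH3, CDH4 and CDH13 were called in all 6 fits that left out a library. Members called higher numbered 2, and 1 with a replicate block, with a 2-fold threshold, and with empty cells set at the value of 1 read (added after the data were seen). They numbered 3 with centred libraries, with a trend term and robust estimation, and without moderation. Members called lower numbered 7, and 3 among the upper 50% of genes or without moderation and 4 with a replicate block. The called members CDH3, CDH15, CDH23, CDH26, CDHR3 and CTNNA2 were not among the upper 50% of genes, so that fit did not test them. Its counts included CTNNA1 as higher and CTNNAL1 as lower, which the main fit did not call. Partners numbered 3 higher and 15 lower, 1 and 3 with the replicate block, and 0 and 0 with a 2-fold threshold. With single libraries left out, members numbered 0 to 2 higher and 3 to 8 lower, partners 1 to 4 higher and 1 to 18 lower, and the members' median was -0.50 (without VC replicate 2) to -0.22. With 1 added to the linear signal that median was -0.0048, and the median of all genes moved from -0.13 to -0.023. Same-numbered VC and KO libraries did not deviate together (r = 0.0226, 0.00509 and -0.00736), so the numbers were not taken as pairs, and the replicate block left 661 genes higher and 1079 lower in place of 2526 and 3828. Members called without the block but not with it were CDH2, CDH23, CDH26 and CDHR3. Signs turned for CDH10 (-0.0013 with 1 added) and CDH5 (0.085 with centred libraries), and, with libraries left out, the ranges were -0.93 to 0.34 for CDH12, -0.18 to 0.77 for CDH10, -0.80 to 0.29 for CDHR1, -0.091 to 0.081 for JUP, -0.11 to 0.75 for CDH7 and -0.071 to 0.89 for CBFA2T3, a neighbour of CDH15. The reversals were at CDH12 without VC replicate 3 (0.33) or KO replicate 2 (0.34), CDH10 without VC replicate 2 (-0.11), VC replicate 3 (-0.18) or KO replicate 1 (-0.083), CDHR1 without VC replicate 1 (0.29), JUP without VC replicate 2 (-0.059) or KO replicate 2 (-0.091), CDH7 without KO replicate 1 (-0.11) and CBFA2T3 without VC replicate 1 (-0.071). The cause of these changes was not tested. Of 314 member results under an alternative, 249 kept direction and side of the threshold, 39 lost a call, 15 gained one and 11 turned sign. All 9 calls held with centred libraries, and CDH23, CDH26, CDHR3 and CTNNA2 were not called without moderation. Of the 32 named and called genes that are no members, 12 were called in every fit that left out a library and could test them. These were FYN, PTPRM, DSP, CLSTN2, TCF4, NT5E, TIE1, CSF1R, PAX7, FAM217B, PPP1R3D and TAF4. PAX7, with an empty KO cell, was tested in 4 of the 6 fits. The adjusted p of the others reached 0.106 at most, for HAS3. Among the called members, CDH3, CDH26, CTNNA2 and, in VC, CDH15 rested on few reads.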
